A study of Mus musculus with 8 samples.

Results

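The response of Gli1+ peribiliary mesenchymal cells of the mouse liver to bile duct ligation (BDL) was read from 4 of the 8 libraries of the series, 2 of uninjured animals and 2 taken 5 d after the operation. They were taken by their titles, and the stellate cell libraries, 2 uninjured and 2 after BDL, entered the model only for the spread between replicates and for the test of a difference between populations. All groups shared 1 genotype and age: Gli1:CreER+/-; Ai9+/- mice at 8 weeks, on a mix of C57BL/6 and SWR/J. In such mice a drug-inducible Cre is made from the Gli1 gene, and Ai9 is a red reporter that Cre turns on for good, so a cell stays marked after Gli1 itself has changed. How the sort was gated, and how Cre was induced, is not stated in the labels used. Replicates carry numbers only, and no label ties a number to its own mouse; p-values therefore reflect the scatter of these libraries, part or all of which may be technical.

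Gli1 is a transcription factor and a target gene of Hedgehog signalling. Cells that express it sit as a sleeve of fibroblast-like mesenchyme around bile ducts and vessels, and they can turn into myofibroblasts that lay down collagen when a duct is blocked. Ligation stops bile flow, so that ducts widen and proliferate, hepatocytes are damaged by bile acids and portal tracts scar.

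Levels are CPM, the reads of a gene per 1000000 reads of its library. Differences are log2 fold changes, BDL minus uninjured, on the log2(CPM + 1) scale, and their standard errors (SE) come from the fitted model. Library totals were 11261775 and 17526202 reads in the uninjured and 12406792 and 16704166 reads in the BDL libraries, so that 3 reads corresponded to between 0.171 and 0.266 CPM. A read was found for 18319 and 19300 genes in uninjured cells and for 21239 and 22897 genes after BDL. Mitochondrially encoded genes took 3.51% and 2.21% of the reads in uninjured and 3.50% and 5.72% in BDL libraries. In bulk samples such as these, fewer cells of a type and less RNA per cell cannot be told apart.

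Gli1 itself stood at 14.9 and 7.59 CPM in uninjured and at 6.61 and 2.39 CPM in BDL libraries. Both BDL libraries were lower, without overlap, and the difference of -1.20 ± 0.71 (SE) did not pass the test (adjusted p = 0.633). Mesenchymal markers were present in every library: Pdgfrb, a receptor of mesenchymal cells, stood at 102 and 44.3 CPM and after BDL at 77.5 and 130, and its groups overlapped. Elastin (Eln), a protein of adventitial matrix, stood at 401 and 607 CPM in uninjured and 326 and 786 CPM in BDL libraries, also with overlap. Transcripts of other cells were present too. The biliary and mesothelial keratin Krt19 stood at 1127 and 1848 CPM before and 2559 and 1023 CPM after BDL, and mesothelin (Msln) at 768 and 2532 CPM before and 1246 and 764 CPM after.

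Hepatocyte transcripts moved with the groups and with 1 library. Summed over 24 hepatocyte markers, the level was 2160 and 504 CPM in uninjured and 4628 and 25916 CPM in BDL libraries, and none was at 0 in any of them. Albumin (Alb), the main plasma protein, stood at 168 and 23.9 CPM before and 990 and 5648 CPM after BDL. In BDL replicate 2 the members were a median of 5.83 times as high as in BDL replicate 1, against 0.954 times over all genes tested. Biliary markers went the other way within the BDL group, with sums of 7471 and 4326 CPM before and 19174 and 9300 CPM after. For macrophage markers the sums were 4299 and 2235 CPM before and 2850 and 3593 CPM after, and for endothelial markers 1848 and 686 CPM before and 1398 and 2414 CPM after, with overlap in both lists. The mesothelial list was carried by uninjured replicate 2, with 7440 and 26687 CPM before and 10600 and 7486 CPM after BDL. Lymphocyte and neutrophil markers stayed at or under 71.7 CPM in sum in every library. The part of these cells in the results that follow was not tested.

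**Figure D1:**
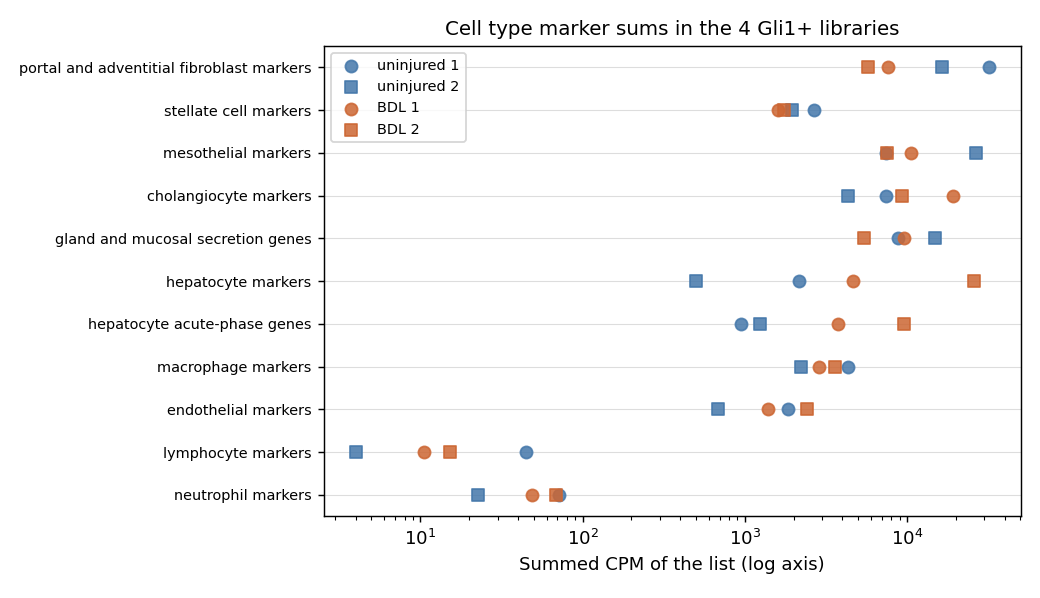
Summed CPM of cell type marker lists (log axis) in the 4 Gli1+ libraries, 1 point per library. Hepatocyte markers reach 25916 CPM in BDL replicate 2, and portal fibroblast markers are lower in both BDL libraries (7671 and 5760 CPM) than in both uninjured ones (31951 and 16550 CPM).

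No single gene passed the test. Of 16446 genes compared, 0 had an adjusted p under 0.05 in the limma-trend fit, and 1812 (11%) had an unadjusted p under 0.05, of which 1167 were higher and 645 lower after BDL. The lowest adjusted p was 0.0548, shared by Reg3b, Pla2g2f, Spry2 and Pam. Counts of calls depended on the tool: edgeR and limma-voom also called 0 genes, and DESeq2 called 406 (2.47%), 266 higher and 140 lower. With a pseudocount of 5 in place of 1, limma-trend called 49 genes (0.298%), 36 of which DESeq2 also called. Genes were ranked by the gap between the groups, whatever the test gave. The gap is the lowest library of the higher group minus the highest library of the lower group. The groups did not overlap for 4122 genes that were higher after BDL (25.1% of those tested) and for 2667 that were lower (16.2%), or 41.3% in both directions together. With 2 libraries against 2, genes without any change also often stand apart, so a lack of overlap ranks genes and is not a test. These shares are the background for every list below. The median difference over all genes was 0.12, and 0.08 after TMM scaling.

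**Figure D2:**
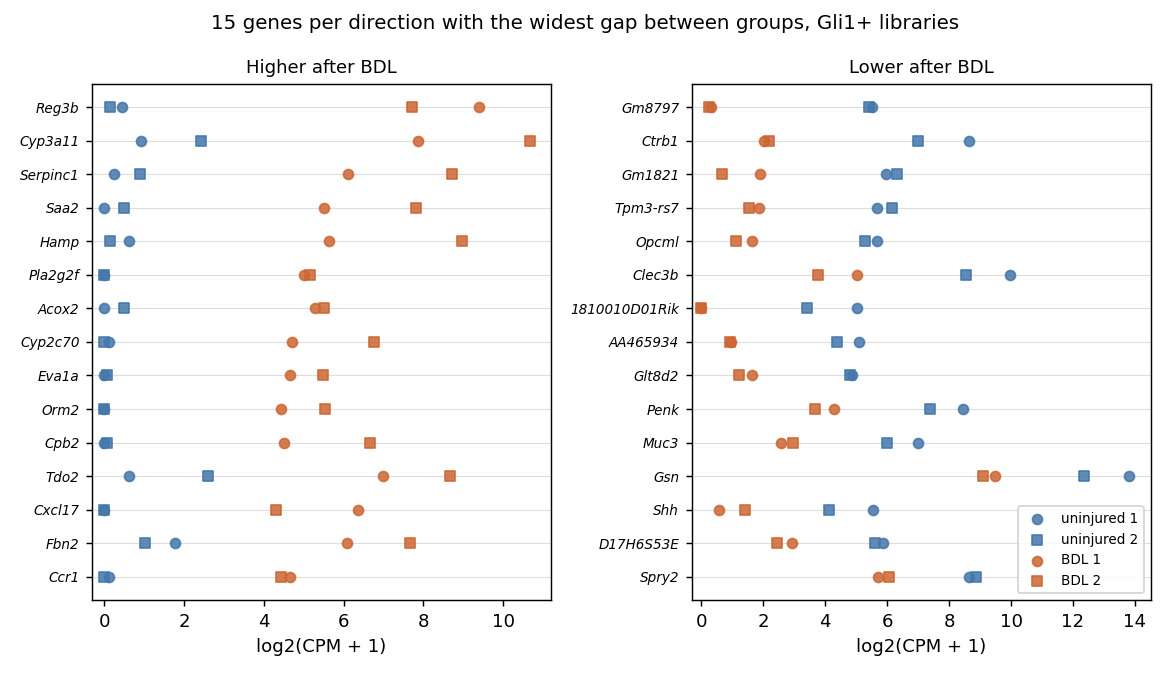
Level in each Gli1+ library, as log2(CPM + 1), of the 15 genes per direction with the widest gap and a mean of at least 20 CPM in the higher group. Circles are replicate 1 and squares replicate 2. Reg3b and Cyp3a11 lead the higher genes; the BDL squares of Cyp3a11, Serpinc1, Saa2 and Hamp lie well to the right of the circles.

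The widest gap belonged to Reg3b, a secreted antimicrobial lectin of mucosal and biliary epithelium (chromosome 6, 78370657 to 78373466, plus strand, GRCm38). It stood at 0.355 and 0.114 CPM in uninjured and at 673 and 209 CPM in BDL libraries, a difference of 8.26 ± 0.83 (SE). The uninjured level was close to the limit of detection, and both BDL libraries lay far above it. Its neighbour in function Reg3g stood at 9.50 and 0.114 CPM before and 288 and 69.4 CPM after BDL. The secreted antiprotease-like gene Wfdc18 went from 17.0 and 1.37 CPM to 280 and 127 CPM. Of the 16 gland and mucosal secretion genes tested, 6 were higher without overlap and 0 lower, with a median difference of 1.09. That median was -0.09 without uninjured replicate 2, which held the lowest level of most members, 2.06 without uninjured replicate 1 and 0.68 without BDL replicate 1. The list's summed level overlapped between groups, at 8821 and 14917 CPM before and 9586 and 5446 CPM after. In CPM without hepatocyte and mitochondrial genes, which removed what it shared with the hepatocyte lists, 5 of 15 were higher and 0 lower.

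Pla2g2f, a secreted phospholipase A2 of epithelia, had no read in either uninjured library and stood at 31.2 and 34.6 CPM after BDL, so that it was at least 318-fold higher over the group. The mucosal chemokine Cxcl17 also had no uninjured read and stood at 81.9 and 18.9 CPM, at least 439-fold higher. Floors of 3 reads over the group, on which these bounds rest, cover counting error only. A further pair of genes, picked out after their values were seen, had 1 read in the uninjured libraries. Cdh17, the liver-intestine cadherin, stood at 63.2 and 15.2 CPM after BDL, and its ratio over the uninjured group was 1027 with an exact 95% interval of 184 to 40583. Pdx1, a homeodomain factor of pancreas and duodenum, stood at 30.8 and 9.82 CPM after BDL. Each of Reg3b, Reg3g, Wfdc18, Cxcl17, Cdh17 and Pdx1 was higher in BDL replicate 1 than in BDL replicate 2, as were the biliary marker sums.

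Fibrillin-2 (Fbn2), a microfibril protein of developing and healing connective tissue, was the matrix gene of widest gap. It stood at 2.40 and 1.03 CPM in uninjured and 66.6 and 201 CPM in BDL libraries, which made the group mean 78.1-fold higher. Its response in stellate cells was 0.10, and the difference of the responses did not pass the test (adjusted p = 0.341). Ccr1, a receptor of inflammatory chemokines on myeloid cells, stood at 0.0888 and 0 CPM before and 24.3 and 20.6 CPM after BDL, a ratio of 638 with an exact 95% interval of 114 to 25232. S1pr1, a receptor for sphingosine 1-phosphate that was picked out after its values were seen, stood at 1.51 and 0.0571 CPM before and 61.4 and 47.9 CPM after. Both BDL libraries were close to each other for Ccr1 and S1pr1.

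Liver-type genes filled most of the rest of that ranking. Cyp3a11, a drug- and bile acid-metabolising cytochrome (chromosome 5, 145854426 to 145879964, minus strand), stood at 0.888 and 4.34 CPM before and 232 and 1619 CPM after BDL. Antithrombin (Serpinc1) went from 0.178 and 0.856 CPM to 67.9 and 419 CPM. Hepcidin (Hamp), the iron-regulating hormone, went from 0.533 and 0.114 CPM to 48.4 and 503 CPM. In all 3 the groups were far apart and BDL replicate 2 was the higher BDL library by a wide margin. The acute-phase gene Saa2, the acute-phase glycoprotein Orm2, the bile acid oxidase Acox2, the cytochrome Cyp2c70, the carboxypeptidase Cpb2 and the tryptophan-degrading enzyme Tdo2 completed this set. Of the 24 hepatocyte markers, 19 were higher without overlap and 0 lower, with a median difference of 4.23. Of the 19 acute-phase genes, 16 were higher and 0 lower, with a median of 4.48. Leaving out 1 library moved the hepatocyte median to between 2.87, without uninjured replicate 2, and 5.46, without uninjured replicate 1. BDL replicate 2 was more than 2 times BDL replicate 1 for 23 of the 24 hepatocyte markers, against 2849 of all 16446 genes. Acox2 differed from the set, with 37.9 and 44.6 CPM in the BDL libraries.

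At the other end, fibroblast genes were among the lower genes of wide gap. Tetranectin (Clec3b), a plasminogen-binding lectin of adventitial fibroblasts (chromosome 9, 123150946 to 123157432, plus strand), stood at 1011 and 373 CPM in uninjured and 31.7 and 12.6 CPM in BDL libraries, a difference of -4.87 ± 0.78 (SE). Gelsolin (Gsn), which severs actin filaments (chromosome 2, 35256380 to 35307892, plus strand), went from 14377 and 5285 CPM to 708 and 551 CPM, a mean 15.6-fold lower. Proenkephalin (Penk), an opioid peptide precursor, went from 346 and 166 CPM to 18.5 and 11.7 CPM. Both BDL libraries lay far under both uninjured ones in all 3. The cell adhesion molecule Opcml and the glycosyltransferase-like gene Glt8d2 were also in this set, at 50.2 and 38.0 CPM and at 28.1 and 27.2 CPM before against at most 2.10 CPM after BDL for both.

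Signalling genes were among them. Spry2, a feedback inhibitor of receptor tyrosine kinases (chromosome 14, 105891947 to 105896819, minus strand), stood at 401 and 471 CPM before and 51.1 and 65.6 CPM after BDL, a difference of -2.89 ± 0.32 (SE) with an adjusted p of 0.0548. The ligand Sonic hedgehog (Shh) stood at 46.0 and 16.4 CPM before and 0.484 and 1.68 CPM after. Its BDL libraries held few reads and lay well under the uninjured ones. Pam, the enzyme that amidates peptide hormones and a gene picked out after its values were seen, stood at 1236 and 724 CPM before and 80.9 and 125 CPM after. Spry2 and Pam were also lower after BDL in stellate cells, by differences of -1.44 and -1.55. A pair of genes of glandular and intestinal epithelium also ranked here, although the biliary and mucosal lists had more members higher than lower. The chymotrypsin precursor Ctrb1 went from 398 and 125 CPM to 3.06 and 3.59 CPM. Its difference of -5.70 was larger in size than that of Clec3b. The mucin Muc3 went from 128 and 62.7 CPM to 4.92 and 6.88 CPM. The gene 1810010D01Rik, at 31.6 and 9.70 CPM before, had no read after BDL and was at least 177-fold lower. Gm8797, Gm1821 and Tpm3-rs7 also ranked here, but they belong to copies of expressed gene families, Gm1821 being annotated as a pseudogene, and the counting of shared reads is not given in the sources used here. Their values are uncertain for that reason.

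Markers of portal fibroblasts were mostly lower after BDL. Of 24 portal and adventitial fibroblast markers, 16 were lower without overlap and 1 was higher, against the background of 16.2% and 25.1%, and the median difference was -1.43. Dermatopontin (Dpt), a collagen-binding matrix protein, stood at 2024 and 1192 CPM before and 503 and 304 CPM after BDL. The IGF-binding protein Igfbp6 stood at 2660 and 2607 CPM before and 773 and 625 CPM after, and the Wnt inhibitor Sfrp4 at 196 and 142 CPM before and 46.1 and 15.8 CPM after. In each of these the groups were clearly apart. Pi16 and Cd34, markers of adventitial progenitor-like fibroblasts picked out after their values were seen, went from 1466 and 437 CPM to 405 and 167 CPM and from 1136 and 694 CPM to 390 and 263 CPM. Thy1, a surface antigen of portal fibroblasts, was the exception, with 41.5 and 25.4 CPM before and 64.0 and 52.0 CPM after BDL. In stellate cells the median of the same list was 0.65, while its summed level was lower after BDL there too. The sums were 2569 and 3059 CPM before and 1631 and 1967 CPM after. Dpt was the closest member to passing the limma-trend test of a difference between populations (adjusted p = 0.0707). Without uninjured replicate 1 the median in Gli1+ cells was -0.94.

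**Figure D3:**
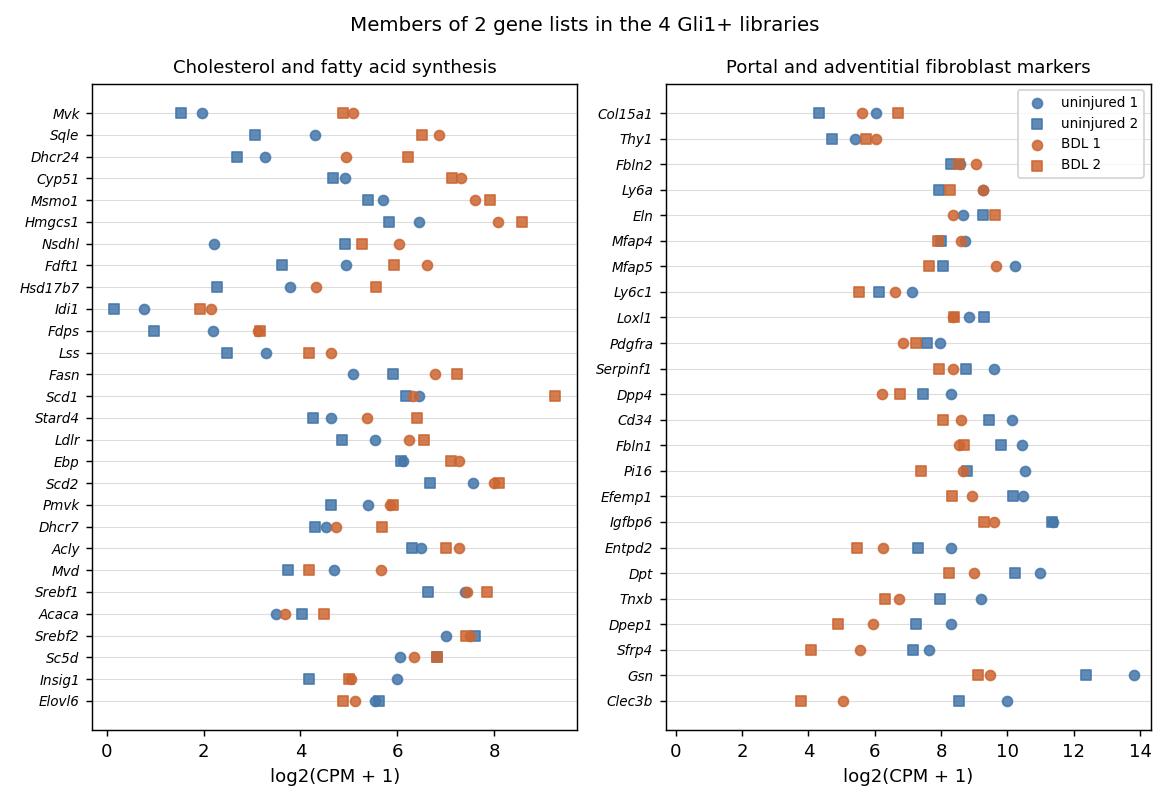
Levels, as log2(CPM + 1), of 28 of the 30 tested members of the cholesterol and fatty acid synthesis list and all 24 of the portal and adventitial fibroblast list in the 4 Gli1+ libraries. Members are ordered by the difference between groups; 21 of those drawn from the first list lie higher in both BDL libraries and 16 of the second lie lower.

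Fibroblast transcription factors were spread over both directions. Of 26 mesenchymal factors tested, 6 were higher and 9 lower without overlap. Ebf1, a factor of adventitial fibroblasts and adipogenic precursors, stood at 165 and 70.1 CPM before and 28.7 and 23.9 CPM after BDL. Osr1, a factor of embryonic connective tissue, went from 168 and 119 CPM to 60.9 and 25.5 CPM, and Tcf21, a factor of resident fibroblasts, from 71.5 and 54.9 CPM to 18.4 and 37.1 CPM. These 3 were lower in both BDL libraries. Snai1, a repressor of epithelial genes, was higher, at 11.3 and 15.9 CPM before and 51.7 and 41.2 CPM after. Runx2, a factor of bone and of activated fibroblasts, went from 4.88 and 0.114 CPM to 12.6 and 24.4 CPM. Ebf2 and Nfia, picked out after their values were seen, stood at 58.7 and 26.9 CPM and 672 and 581 CPM before, and at 4.43 and 4.61 CPM and 70.0 and 156 CPM after BDL.

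Fibrillar collagen genes were mostly higher after BDL. Of 9 tested, 8 were higher without overlap and 0 lower, with a median difference of 1.02. With TMM scaling 7 were higher. The gap was narrow for Col5a3 (0.046) and Col5a2 (0.077), on the log2(CPM + 1) scale. Col1a1, which encodes the main chain of type I collagen, stood at 2821 and 2166 CPM before and 4945 and 5050 CPM after BDL, a difference of 1.02 ± 0.43 (SE) and an adjusted p of 0.422. Col5a1, a chain that sets fibril diameter, went from 518 and 348 CPM to 1060 and 1148 CPM, and Col3a1, abundant in young scar, from 5326 and 4558 CPM to 6130 and 6762 CPM. The BDL libraries were close to each other for all 3, and the median ratio of BDL replicate 2 to replicate 1 over the list was 1.05. In stellate cells the list median was 0.71, and the response of Col1a1 there was 2.40.

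Chains of basement membrane, the sheet under epithelium and around vessels, were higher for 7 of 21 members and lower for 2, while 12 overlapped. The share higher was 33.3%, not far from the 25.1% over all genes, and the median difference was 0.50. Col4a1 and Col4a2, which form the common collagen IV network, stood at 312 and 259 CPM and 117 and 145 CPM before, and at 805 and 915 CPM and 328 and 373 CPM after BDL. The laminin chains of epithelial basement membrane Lama3 and Lamb3 stood at 7.01 and 2.34 CPM and 13.1 and 6.56 CPM before, and at 30.5 and 20.8 CPM and 61.4 and 29.2 CPM after. Lamb2, a chain of vascular and smooth muscle laminins, was lower, with 225 and 261 CPM before and 153 and 108 CPM after.

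Most of the small proteoglycans that organise the fibrils went the other way. Of 10 small leucine-rich proteoglycans, which coat collagen and bind growth factors, 8 were lower without overlap and 1 was higher, with a median of -1.60, and of -1.01 without uninjured replicate 1. Decorin (Dcn) stood at 14173 and 11440 CPM before and 3506 and 3898 CPM after BDL, a difference of -1.78 ± 0.48 (SE). Osteoglycin (Ogn) went from 755 and 494 CPM to 159 and 146 CPM. Biglycan (Bgn) was the single member that was higher, at 1284 and 1459 CPM before and 1467 and 1582 CPM after, a small step of 0.15 ± 0.33 (SE) that overlapped between groups after TMM scaling. Some other genes of the adventitial matrix were lower too. Col14a1, a collagen that ties fibrils together, went from 1071 and 651 CPM to 249 and 358 CPM. The elastic fibre protein Efemp1 went from 1429 and 1158 CPM to 487 and 321 CPM. Another, Fbln1, went from 1400 and 887 CPM to 369 and 411 CPM. Their lists were mixed. Of 10 microfibrillar and fibril-associated collagens, 2 were higher, 3 lower and 5 overlapped. Of 17 elastic fibre and microfibril genes, 2 were higher, 5 lower and 10 overlapped. Col12a1, from the same list as Col14a1, was higher, from 43.6 and 19.7 CPM to 89.1 and 116 CPM. Tenascin-X (Tnxb), a matrix glycoprotein of quiescent connective tissue, went from 591 and 249 CPM to 105 and 79.0 CPM. Its relative tenascin-C (Tnc), a glycoprotein of wounds, went from 19.5 and 19.5 CPM to 151 and 141 CPM, so the 2 tenascins lay in opposite directions.

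Collagen processing genes were mixed, with 5 of 26 higher and 9 lower. Lysyl oxidase (Lox), which crosslinks collagen and elastin, stood at 138 and 138 CPM before and 492 and 388 CPM after BDL. Serpinh1, the collagen chaperone of the endoplasmic reticulum, was lower, at 689 and 737 CPM before and 243 and 293 CPM after. The procollagen C-proteinase enhancers Pcolce and Pcolce2 were lower as well, from 687 and 875 CPM and 444 and 124 CPM to 402 and 361 CPM and 50.1 and 48.5 CPM. Of 21 metalloproteinases and inhibitors, 6 were higher and 4 lower. Timp1, an inhibitor of matrix proteases, stood at 69.3 and 340 CPM before and 779 and 689 CPM after, and the epithelial protease Mmp7 at 81.3 and 32.2 CPM before and 523 and 244 CPM after. Osteopontin (Spp1), a secreted phosphoprotein of biliary cells and macrophages, went from 2140 and 259 CPM to 10259 and 5167 CPM.

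Contractile genes did not separate the groups as a list, with 6 of 23 higher and 5 lower. Smooth muscle actin (Acta2), the usual marker of myofibroblasts, stood at 507 and 777 CPM before and 761 and 840 CPM after BDL, and its groups overlapped (0.35 ± 0.48 SE, adjusted p = 0.881). Desmin (Des), an intermediate filament, overlapped too, at 43.2 and 66.1 CPM before and 51.3 and 74.7 CPM after. The smooth muscle genes Cnn1 and Myh11 were lower in both BDL libraries, from 73.3 and 46.6 CPM and 140 and 107 CPM to 31.2 and 9.70 CPM and 64.3 and 67.9 CPM. Cytoplasmic actin (Actb), picked out after its values were seen, went from 8039 and 7711 CPM to 1928 and 2412 CPM, with a similar response of -1.52 in stellate cells.

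Cholesterol synthesis was the metabolic list with the most members higher. Its genes are switched on together by the membrane-bound factor SREBP2 when a cell is short of sterol. Of 30 genes for cholesterol and fatty acid synthesis, 23 were higher without overlap and 1 was lower, with a median difference of 1.49. Mvk, which makes mevalonate phosphate, stood at 2.93 and 1.88 CPM before and 33.1 and 28.6 CPM after BDL, a difference of 3.24 ± 0.65 (SE) and an adjusted p of 0.0864. Squalene epoxidase (Sqle) went from 18.6 and 7.36 CPM to 115 and 89.9 CPM, and lanosterol demethylase (Cyp51) from 29.5 and 24.6 CPM to 158 and 138 CPM. All 3 had BDL libraries near each other and far above the uninjured ones. Hmgcs1, an enzyme at the entry of the pathway that was picked out after its values were seen, stood at 86.2 and 56.0 CPM before and 270 and 381 CPM after. The elongase Elovl6 was the single member that was lower, at 45.2 and 48.6 CPM before and 33.9 and 28.3 CPM after. Between the BDL libraries the list's median ratio of replicate 2 to replicate 1 was 1.03, beside 5.83 for the hepatocyte markers. Hepatocytes also make these enzymes, and their part in the result was not tested. In stellate cells the list median was 0.66, and no member passed the test of a difference.

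Cell cycle genes were mostly higher as well. Of 38 tested, 26 were higher without overlap and 2 lower, with a median difference of 1.54. Mki67, a protein of the surface of mitotic chromosomes, stood at 12.9 and 40.3 CPM before and 109 and 65.4 CPM after BDL. Cdk1, the kinase of mitotic entry, went from 16 and 42.6 CPM to 83.7 and 62.6 CPM, and Top2a, which untangles replicated DNA, from 1.33 and 38.4 CPM to 115 and 63.2 CPM; these 3 were picked out after their values were seen. Plk1, a mitotic kinase, stood at 5.24 and 8.05 CPM before and 31.0 and 26.3 CPM after, and the helicase subunit Mcm3 at 6.48 and 18.5 CPM before and 52.2 and 49.1 CPM after. In these genes uninjured replicate 2 was above uninjured replicate 1, and the list median of that ratio was 2.26. Without uninjured replicate 1 the list's median difference was 0.73, and without uninjured replicate 2 it was 2.21. Ccnd2, a cyclin of the first growth phase, was lower, at 214 and 114 CPM before and 93.9 and 108 CPM after. Stellate cells had a list median of 2.06.

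Promoters of some members of these 2 lists are shown because most members were higher after BDL. Those shown are a choice and do not stand for their lists. Each cell cycle stretch shown holds TTTGAA at 2 places, whereas that of Plk1, not shown, holds CCAAT at 1 and TTTGAA at 0. The stretch of Cyp51, also not shown, holds CCAAT at 1 place and TCACNCCAC at 0. Sequences are the 200 bases before the start of the gene, RefSeq on GRCm38.p6, 5′ to 3′ on the gene's strand, with capitals for CCAAT (or its complement ATTGG) and, in the cell cycle genes, for TTTGAA (or TTCAAA), the letters of the cell cycle homology element. In Hmgcs1 the capitals also mark TCACNCCAC, the letters of a sterol element. The promoter of Cdk1 is at chr10:69352913-69353112, minus strand; of Top2a at chr11:99024190-99024389, minus strand; of Mki67 at chr7:135716380-135716579, minus strand. Those of Hmgcs1 and Mvk are at chr13:119690151-119690350, plus strand, and at chr5:114444069-114444268, plus strand.
Cdk1: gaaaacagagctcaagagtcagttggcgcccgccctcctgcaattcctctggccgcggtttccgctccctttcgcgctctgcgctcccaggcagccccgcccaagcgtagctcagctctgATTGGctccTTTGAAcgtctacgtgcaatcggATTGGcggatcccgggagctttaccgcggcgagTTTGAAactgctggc
Top2a: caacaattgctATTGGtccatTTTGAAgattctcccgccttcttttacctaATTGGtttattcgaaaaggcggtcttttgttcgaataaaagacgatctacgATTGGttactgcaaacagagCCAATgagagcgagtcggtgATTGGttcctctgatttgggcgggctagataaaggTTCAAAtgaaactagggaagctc
Mki67: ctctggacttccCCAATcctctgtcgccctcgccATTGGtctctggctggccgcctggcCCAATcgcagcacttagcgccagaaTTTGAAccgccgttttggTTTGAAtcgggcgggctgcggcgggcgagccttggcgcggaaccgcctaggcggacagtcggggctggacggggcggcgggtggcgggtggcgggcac
Hmgcs1: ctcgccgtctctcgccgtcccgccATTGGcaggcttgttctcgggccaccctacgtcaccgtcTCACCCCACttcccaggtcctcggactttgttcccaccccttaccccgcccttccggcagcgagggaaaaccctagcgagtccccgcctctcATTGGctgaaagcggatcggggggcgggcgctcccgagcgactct
Mvk: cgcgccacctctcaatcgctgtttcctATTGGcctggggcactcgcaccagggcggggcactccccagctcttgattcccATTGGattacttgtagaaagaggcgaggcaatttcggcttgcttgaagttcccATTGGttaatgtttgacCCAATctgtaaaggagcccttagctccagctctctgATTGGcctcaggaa
Over windows of 300 bases (250 before to 50 after a start, both strands searched, overlaps between motifs allowed), CCAAT was in 28 of 33 promoters of the cell cycle list (84.8%) and TTTGAA in 17 (51.5%), for 31 of its 38 genes that had a promoter in the table. Over all 32851 promoters the shares were 37.4% and 17.9%. CCAAT was in 19 of 25 promoters of the cholesterol list (76.0%), for 20 of its 30 genes, and TCACNCCAC in 1 (4%), against 1.24% of all promoters. CCAAT was also frequent in lists whose members were not mostly higher: it was in 11 of 14 promoters of the MHC and antigen processing list (78.6%) and in 20 of 26 of the integrated stress and unfolded protein response list (76.9%). These matches describe the letters in the windows and show neither a bound site nor a cause.

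Ribosomal protein genes were higher for 22 of 31 members and lower for 2, by a median of 0.47. Genes of the hypoxia and glycolysis list were mixed, with 4 of 25 higher and 6 lower and a median of 0.18. That median was -0.42 without uninjured replicate 1 and 0.43 without uninjured replicate 2. The 2 members named next were among the lower ones. Adrenomedullin (Adm), a vasodilator peptide, stood at 126 and 144 CPM before and 23.1 and 25.4 CPM after BDL, a difference of -2.43 ± 0.36 (SE) with an adjusted p of 0.0585. Ndrg1, a hypoxia-responsive gene, went from 256 and 324 CPM to 111 and 114 CPM. Of 19 antioxidant genes, 8 were higher and 3 lower. Gclm, a subunit of the enzyme that starts glutathione synthesis, went from 43.8 and 72.4 CPM to 209 and 210 CPM, while the extracellular dismutase Sod3 went from 1011 and 529 CPM to 280 and 286 CPM. Gstm3, a glutathione transferase picked out after its values were seen, went from 9.95 and 6.28 CPM to 229 and 160 CPM. Cyp26a1, the enzyme that clears retinoic acid, had no uninjured read and stood at 11.4 and 31.0 CPM after BDL, at least 218-fold higher.

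**Figure D4:**
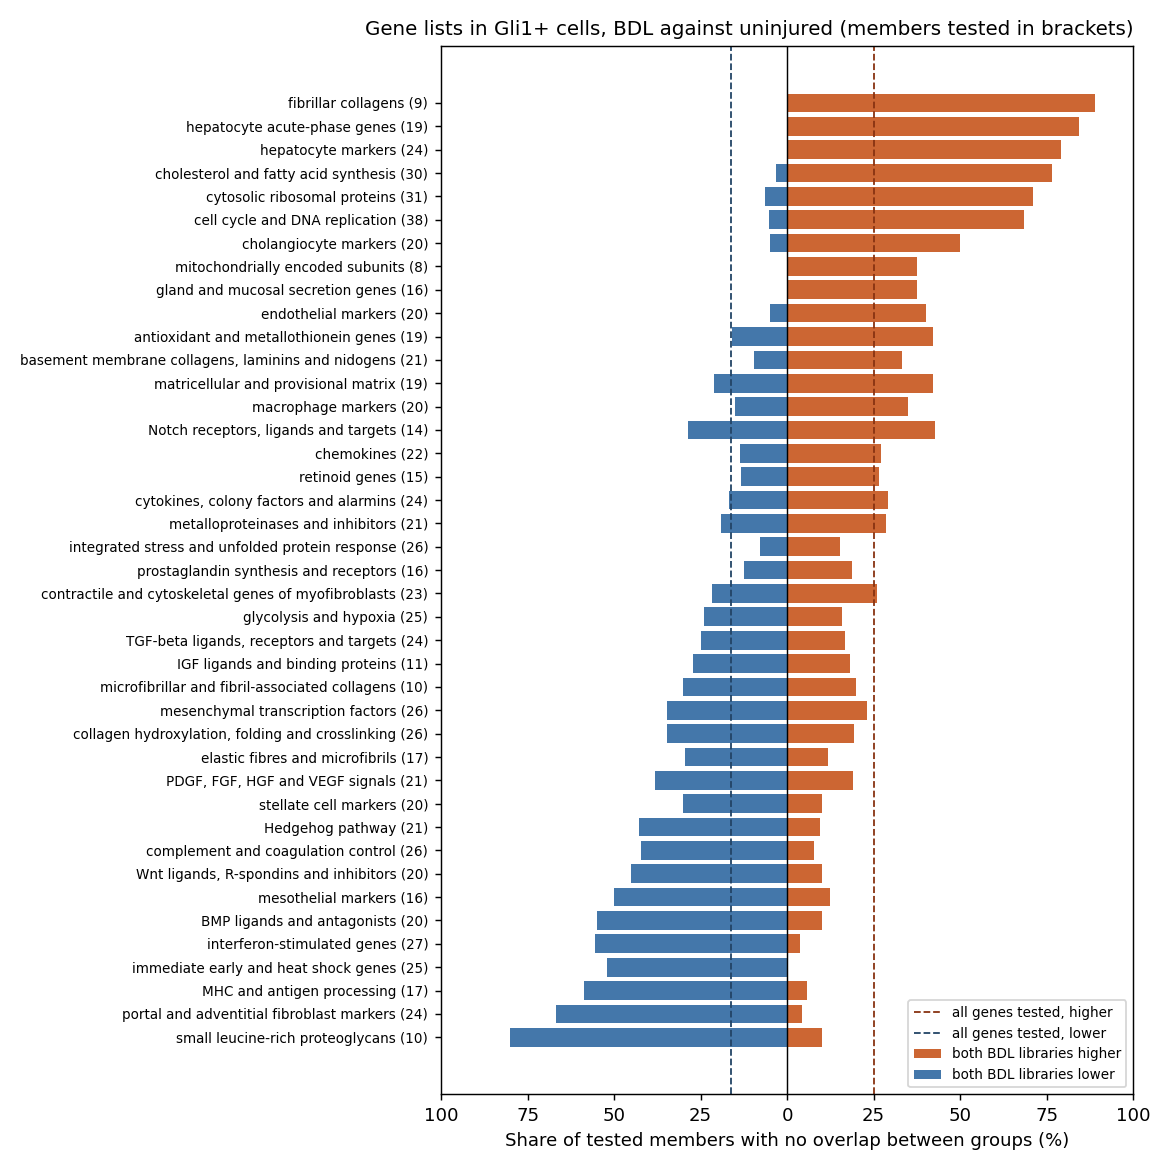
Share of tested members of each gene list (8 or more members tested) whose 2 BDL libraries were both higher (right) or both lower (left) than the 2 uninjured libraries. Dashed lines give the shares over all genes tested, 25.1% and 16.2%; fibrillar collagens stand at the top and small leucine-rich proteoglycans at the bottom.

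In the Hedgehog, BMP, Wnt and PDGF lists more members were lower than higher, and the TGF-beta list was mixed. Of 21 Hedgehog pathway genes, 9 were lower without overlap and 2 higher. The co-receptor Gas1 stood at 802 and 763 CPM before and 145 and 345 CPM after BDL. Foxf1, a mesenchymal factor that Hedgehog signals sustain, went from 79.7 and 62.8 CPM to 15.4 and 29.5 CPM. Ptch1, the main receptor and a target of the pathway, overlapped, at 51.4 and 33.1 CPM before and 29.3 and 56.6 CPM after, as did the ligand-binding inhibitor Hhip, at 2.22 and 7.99 CPM before and 1.69 and 4.61 CPM after. The list median was -0.51, and -0.97 without uninjured replicate 2.

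Among BMP ligands and antagonists 11 of 20 were lower and 2 higher, with a median of -1.0, and of -0.61 without uninjured replicate 1. Bmp4, a ligand of mesenchyme, went from 111 and 172 CPM to 45.1 and 25.3 CPM, and the antagonist Nbl1 from 971 and 506 CPM to 226 and 194 CPM. Of 20 Wnt ligands, R-spondins and inhibitors 9 were lower and 2 higher. Rspo1, which strengthens Wnt signals, stood at 295 and 334 CPM before and 87.6 and 125 CPM after BDL. The members that were higher were both Wnt inhibitors: Wif1 went from 0 and 1.43 CPM to 24.3 and 22.9 CPM, and Frzb from 2.40 and 0.228 CPM to 16.6 and 83.0 CPM. The ligand Wnt7a, which is outside the list and was picked out after its values were seen, went from 1.60 and 1.20 CPM to 26.8 and 28.5 CPM. Of 21 genes of the PDGF, FGF, HGF and VEGF group 4 were higher and 8 lower, among them Fgf7, an epithelial growth factor of mesenchyme, from 57.5 and 9.81 CPM to 3.63 and 0.419 CPM. The TGF-beta list had 4 of 24 higher and 6 lower, while 14 overlapped and the median was 0.16. That median was 0.35 without uninjured replicate 1 and -0.17 without uninjured replicate 2. Among its lower members was Tgfbr3, the co-receptor betaglycan, at 297 and 267 CPM before and 68.9 and 104 CPM after. The receptor Tgfbr2 overlapped, at 253 and 276 CPM before and 274 and 276 CPM after. In the Notch list 6 of 14 were higher and 4 lower: the ligand Jag1 went from 104 and 103 CPM to 58.4 and 22.4 CPM, the receptor Notch2 from 318 and 407 CPM to 110 and 160 CPM, and the biliary factor Sox9 from 81.2 and 25.6 CPM to 129 and 97.4 CPM.

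Genes of innate defence and antigen display were more often lower than higher. Of 27 interferon-stimulated genes 15 were lower without overlap and 1 higher, with a median of -0.90. The guanylate-binding protein Gbp2 stood at 294 and 980 CPM before and 80.8 and 121 CPM after BDL, and the factor Irf7 at 73.1 and 82.6 CPM before and 7.90 and 26.5 CPM after. Cxcl10, a chemokine that interferon induces, went from 37.6 and 120 CPM to 10.2 and 8.80 CPM. Both BDL libraries were under both uninjured ones in these genes, although the uninjured libraries themselves differed. Of 17 MHC and antigen processing genes 10 were lower and 1 higher, with a median of -1.09, with -0.59 without uninjured replicate 2 and -1.65 without uninjured replicate 1. The class I chain H2-D1 went from 2839 and 4958 CPM to 1542 and 973 CPM, its partner B2m from 4654 and 6647 CPM to 1835 and 3165 CPM, and the peptide transporter Tap2 from 97.2 and 238 CPM to 32.9 and 36.0 CPM. In stellate cells the medians of these lists were -0.67 and -0.83.

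In the list of complement and coagulation control genes 11 of 26 members were lower and 2 higher. The C1 inhibitor Serping1 stood at 3443 and 4031 CPM before and 1424 and 1494 CPM after BDL, and the protease C1ra at 332 and 632 CPM before and 121 and 173 CPM after. Complement C3, the hub of the cascade, went from 6036 and 23184 CPM to 3504 and 5032 CPM, with the uninjured libraries far apart. Immediate early and heat shock genes, which answer growth factors and stress within minutes, were lower for 13 of 25 members and higher for 0. Their median was -0.88 against 0.69 in stellate cells. The list's summed level in stellate cells overlapped between groups, at 4658 and 4855 CPM before and 8144 and 4417 CPM after. Egr1 went from 568 and 737 CPM to 173 and 263 CPM, Jun from 346 and 327 CPM to 145 and 137 CPM, and Fos from 513 and 673 CPM to 241 and 259 CPM. No member passed the test of a difference between populations (Egr1, adjusted p = 0.151).

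Chemokines and cytokines were mixed, with 6 of 22 and 7 of 24 higher and 3 and 4 lower. Some cytokine list members are also on the hepatocyte lists. In CPM without hepatocyte and mitochondrial genes, 4 of the remaining 21 were higher and 2 lower. Ccl9, a chemokine for myeloid cells, went from 0 and 5.82 CPM to 80.4 and 100.2 CPM. The siderophore-binding protein Lcn2, which is also on a hepatocyte list, went from 194 and 55.8 CPM to 1119 and 581 CPM. Interleukin 11 (Il11), a cytokine of activated fibroblasts picked out after its values were seen, had 1 uninjured read and stood at 4.59 and 4.49 CPM after BDL. Ccl2, a monocyte attractant, overlapped, at 24.7 and 605 CPM before and 307 and 94.2 CPM after.

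Of 20 macrophage markers, 7 were higher without overlap, 3 were lower and 10 overlapped, with a median of 0.05. Among the lower were 2 genes of Kupffer cells, the resident macrophages of the liver: Clec4f stood at 644 and 280 CPM before and 102 and 143 CPM after BDL, and Vsig4 at 261 and 126 CPM before and 71.8 and 89.7 CPM after. Among the higher were the monocyte chemokine receptor Ccr2, at 0.355 and 0.856 CPM before and 6.05 and 46.6 CPM after, and the macrophage membrane gene Ms4a7, at 0.355 and 0.0571 CPM before and 21.1 and 20.9 CPM after. Of 20 endothelial markers 8 were higher and 1 lower, with a median of 1.21. It was 0.01 without uninjured replicate 2, where most members were lowest, 0.47 without BDL replicate 2 and 1.95 without uninjured replicate 1. Von Willebrand factor (Vwf) stood at 21 and 11.4 CPM before and 74.6 and 165 CPM after. Of 20 biliary markers 10 were higher and 1 lower, with a median of 1.60. It was 0.74 without uninjured replicate 2, 2.42 without uninjured replicate 1 and 1.06 without BDL replicate 1. Epcam, an adhesion molecule of biliary epithelium, stood at 211 and 172 CPM before and 1077 and 459 CPM after, and the tight junction protein Cldn4 at 21.8 and 3.14 CPM before and 136 and 91.2 CPM after. Of 16 mesothelial markers 8 were lower and 2 higher. The members that were higher, Krt8 and Krt18, are keratins that biliary cells also make, and Upk3b, a marker of mesothelium, went from 732 and 1442 CPM to 215 and 325 CPM. The mesothelial median was -1.24, with -0.33 without uninjured replicate 2 and -1.87 without uninjured replicate 1.

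**Figure D5:**
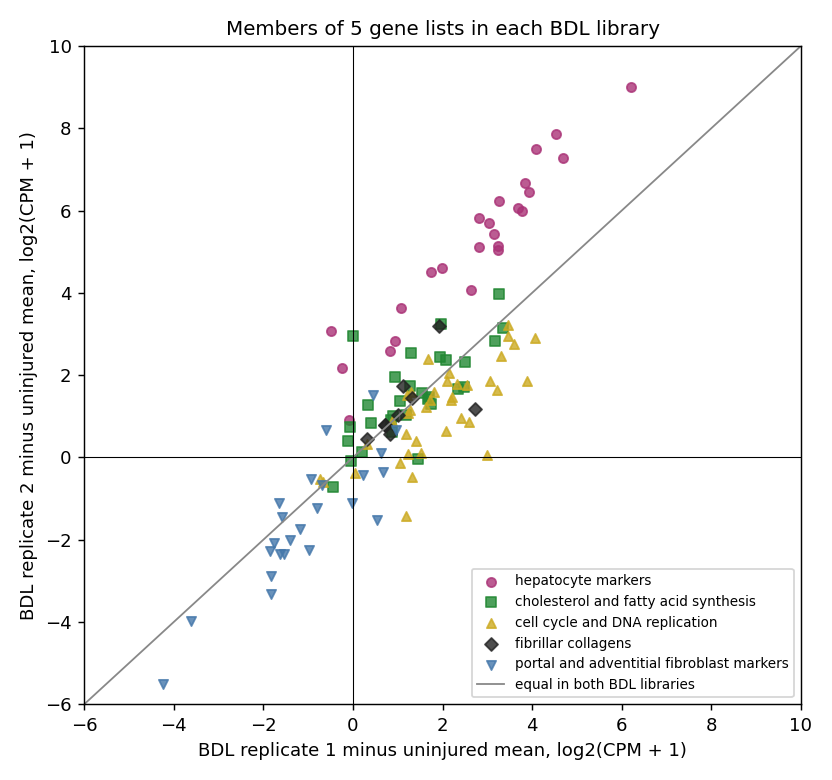
Difference of each BDL library from the mean of the 2 uninjured libraries, on the log2(CPM + 1) scale, for members of the hepatocyte, cholesterol, cell cycle, fibrillar collagen and portal fibroblast lists, with replicate 1 on the horizontal and replicate 2 on the vertical axis. Hepatocyte markers lie above the line of equality (median ratio of replicate 2 to replicate 1 of 5.83), cell cycle genes mostly below it (0.625), and fibrillar collagens (1.05) and cholesterol genes (1.03) near it.

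The 2 BDL libraries were thus not equal in their content. Portal fibroblast markers had a median ratio of replicate 2 to replicate 1 of 0.687, biliary markers of 0.506 and acute-phase genes of 3.93. Of the 15 genes of widest gap that were higher, 9 were more than 2 times as high in replicate 2 as in replicate 1, and 2 were more than 2 times as high in replicate 1. Among all genes that were higher without overlap, 51.5% had the higher BDL level in replicate 2.

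The response in Gli1+ cells differed from that in stellate cells for 2 of the 16446 genes (0.0122%) by the limma-trend test of the difference itself, and in both the Gli1+ cells had no clear response. Tissue plasminogen activator (Plat) stood at 238 and 177 CPM before and 195 and 138 CPM after BDL in Gli1+ cells, with overlap, against 0.0612 and 0.104 CPM before and 85.9 and 167 CPM after in stellate cells. The prostaglandin transporter Slco2a1 stood at 121 and 120 CPM before and 122 and 171 CPM after in Gli1+ cells, against 0 and 0.156 CPM before and 142 and 107 CPM after in stellate cells. After BDL the levels of both genes in stellate cells were near those that Gli1+ cells had in either state. The adjusted p of both differences was 0.0175, and both genes were picked out after their values were seen. Endothelial markers were also higher in the stellate libraries after BDL, with a median difference of 2.995. Their sums there were 2617 and 2655 CPM before and 5954 and 4582 CPM after. The part of endothelial transcripts in the 2 calls was not tested. No gene was called with a pseudocount of 5, without a filter on low values, by limma-voom, or without any 1 of the 4 Gli1+ or the 2 stellate BDL libraries. Without uninjured stellate replicate 1 or 2 the count was 30 or 6, and it was 11 by edgeR and 389 by DESeq2.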

How the data were processed

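RNA of sorted cells was measured with SMART-Seq2 libraries, 8 in all in 4 groups of 2. The authors deposited 1 table per library with CPM values (reads scaled to the library's total) for 30395 gene identifiers, per the file headers. The submitters' processing notes name FastQC, STAR 2.5.2b, featureCounts, DESeq2 and the mm10 build, with no role or order given. Whole reads were recovered from the CPM steps for 100% of values within 0.1 read. Names came from GENCODE M21 for 30214 identifiers, and rows without a name held 0.0402% of CPM. Every column belonged to a labelled library.

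A level of 1 CPM or more in 2 or more libraries was required, which left 16446 genes. They were fitted on log2(CPM + 1) by limma-trend, under R 4.3.3 and limma 3.58.1, with 4 group means over all 8 libraries, which leaves 4 residual degrees of freedom. The stellate libraries entered for the spread and for the test of a difference of responses. P-values are two-sided and Benjamini-Hochberg adjusted over the 16446 genes, and an adjusted p under 0.05 was called. The fit was tested on simulated data.

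Named genes are a fixed short list of markers, the 15 genes per direction of widest gap whose higher group averaged 20 CPM or more, and per list up to 4 members a direction without overlap and 5 CPM or more by gap, plus the 2 of highest level (the 3 of highest level in lists of other cell types). The comparison, the 45 lists and the rules were chosen with earlier results of these data known. Alternatives were pseudocounts of 0.5 and 5, filters, TMM scaling, DESeq2 size factors, CPM without hepatocyte and mitochondrial genes, the Gli1+ libraries alone, edgeR 4.0.16, DESeq2 1.42.0 and limma-voom on the recovered reads, a replicate block, and leaving out each library. Exact 95% intervals and floors of 3 reads cover counting error only. Promoter sequences are from RefSeq. Values of 4 list members are not reported here.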

Additional observations from a re-analysis of the deposited data

Results flagged for a closer look

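For 2 genes the BDL response of Gli1+ cells differed from that of stellate cells by the limma-trend test of the difference. For Plat, tissue plasminogen activator, the response of Gli1+ cells minus that of stellate cells was -7.12, and for the prostaglandin transporter Slco2a1 it was -6.59, both with an adjusted p of 0.0175. The response itself was -0.32 ± 0.45 (SE) in Gli1+ and 6.80 in stellate cells for Plat, and 0.26 ± 0.41 (SE) in Gli1+ and 6.85 in stellate cells for Slco2a1. In stellate cells either gene stood at 0.156 CPM or less in both uninjured libraries and at 85.9 CPM or more in both BDL libraries. Endothelial markers as a list were also higher in the stellate libraries after BDL, and their part in these 2 genes was not tested. The call was lost, with 0 genes called, with a pseudocount of 5, without a filter on low values, by limma-voom, and without any 1 of the 4 Gli1+ or the 2 stellate BDL libraries.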

How the results depend on the processing

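With limma-trend the count of genes called was 0 as reported, 49 with a pseudocount of 5, 127 without a filter on low values and 3 with a filter of 5 CPM, and DESeq2 called 406. It was 0 under each of the other alternatives run, the fit without any 1 library included. The count of list members called was 0 as reported and 9 with a pseudocount of 5. For the difference from stellate cells, 2 genes were called as reported, 11 by edgeR, 389 by DESeq2, and 0 with a pseudocount of 5, without a filter or by limma-voom; leaving out 1 library gave 0 to 30, the latter without uninjured stellate replicate 1. With the replicate block 0 genes were called in the Gli1+ comparison and 0 for the difference. Deviations of same-numbered libraries correlated between -0.112 and 0.112 over the pairs of groups, so the numbers were not taken to pair them. Without overlap stood 6789 genes, and 10687 to 12321 when 1 library was left out, which by construction leaves fewer libraries to overlap. Of 141 genes named, 132 kept their direction in every alternative. The others all overlapped between groups. Ccl2 was -0.77 by edgeR and by DESeq2, and -1.82 to 2.74 with 1 library left out. Eln was -0.0089 with TMM scaling, -0.0367 with DESeq2 size factors, -0.0069 by limma-voom and -0.60 to 0.67 with 1 library left out. Ptch1 was 0.0357 without hepatocyte and mitochondrial genes, 0.0047 by edgeR, 0.0188 by limma-voom and -0.48 to 0.44 with 1 library left out. Tgfbr2 was -0.0174 with DESeq2 size factors, -0.0181 by DESeq2 and -0.0048 to 0.12 with 1 library left out. With 1 library left out, Des ranged from -0.0926 to 0.51, Hhip from -1.21 to 0.27, Krt19 from -0.50 to 0.83, Msln from -1.37 to 0.34 and Pdgfrb from -0.0161 to 1.16. The cause was not tested.

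With 2 libraries a group and 4 residual degrees of freedom, the number of libraries limits the precision of every comparison. Under 0.171 to 0.266 CPM, the level of 3 reads, a gene could not be told from absent.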
